A study of Homo sapiens with 48 samples.

Results

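The genes described here encode proteins that make ribosomes in the nucleolus. The list names 50 genes chosen by their known roles, each represented by its brightest probe set among those that carry a single gene symbol, and 44 of the 50 were measured in this way out of 19775 genes represented on the arrays. NOP56, DKC1, BOP1, PPAN, DDX18 and GNL3 had no such probe set. The cells were T47D-YA, a variant of the T47D breast cancer line that lacks IRS proteins, in sublines made to express the human form of IRS-1, as clones #10 and #20, or of IRS-2, as clones #1 and #6. These are the adaptor proteins that carry the signal of the IGF-I receptor. After 24 h in serum-free medium (SFM) they received IGF-I, a growth factor of the insulin family, or SFM with fibronectin and no IGF-I, and RNA was taken 4 h and 24 h later. Clone, treatment and time gave 16 groups of 3 arrays (Affymetrix HG-U133 Plus 2.0), 48 arrays in all. Each subline is a single clone, both isoforms are represented by 2 clones, and the promoter that drives each IRS gene is not given in the sources used here.

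Ribosome production begins with RNA polymerase I, which transcribes the ribosomal RNA genes into one long precursor. Small nucleolar ribonucleoproteins (snoRNPs) of the box C/D and box H/ACA kinds then guide methylation and pseudouridylation of that precursor. Assembly factors fold and cut it into the RNA of the small and the large ribosomal subunit. The process takes up much of the energy of a growing cell, and it is known to respond to growth factors, partly through the TOR kinase and the transcription factor MYC, which binds the E-box CACGTG.

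Levels are log2 values made by the authors with GC-RMA, so a difference of 1 is a doubling. They were compared with limma, in 1 model of all 16 groups, and a gene was called where p, adjusted by Benjamini-Hochberg over 54613 probe sets, was under 0.05. The arrays are the replicates, and nothing in the labels says that they came from separate cultures, so the p-values measure the spread between arrays, which may be technical. Array medians lay between 7.39 and 7.51, and arrays of 1 group correlated at 0.994 to 0.998. The members were among the brighter probe sets, with means from 8.11 to 13.9. Over 8 luminal epithelial markers the mean level was 12.9 to 13.1 on the IGF-I arrays at 24 h, against 13.0 to 13.2 on the SFM arrays at 24 h, and over 8 markers of other cell types it was 7.98 to 8.17 against 7.93 to 8.20. The IRS1 probe set with the widest spread averaged 5.59 and 6.10 in clones #10 and #20, against 8.53 and 8.002 in clones #1 and #6, which runs against the labels, and the other IRS1 probe sets were lower in clones #10 and #20 too, by less. The brighter IRS2 probe set averaged 7.38 and 7.17 in clones #10 and #20, against 6.90 and 6.89 in clones #1 and #6, while the other averaged 7.08 and 7.05, against 7.04 and 7.13, and whether these probe sets read the introduced genes was not tested. The names IRS-1 clone and IRS-2 clone are therefore those of the labels.

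At 4 h the IGF-I arrays carried more RNA of a small set of assembly factors than the SFM arrays. NIP7, a factor of large subunit assembly, stood 0.35 ± 0.038 log2 higher over the 4 clones (SE of the fit, 12 arrays a side, 1.27-fold, adjusted p = 1.15e-09). RRS1, which helps to place the small ribosomal RNA of the large subunit, was 0.31 ± 0.021 higher (1.24-fold, adjusted p = 1.07e-15), and NOP2, a methyltransferase of the large subunit RNA, was 0.24 ± 0.024 higher (adjusted p = 1.43e-10). In all, 15 of the 44 members rose at 4 h over the 4 clones and 0 fell, where 5.32% of all genes rose and 11.9% fell. The median difference was 0.03 over the members and -0.01 over all genes, so most members lay close to 0. In RNA of whole cultures a change in every cell and a change in the share of cells that express a gene cannot be told apart.

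Clone by clone at 4 h, 9 members rose and 0 fell in clone #10 (1.18% and 1.47% of all genes), 3 and 0 in clone #20 (1.17% and 3.54%), 6 and 0 in clone #1 (1.53% and 0.794%), and 6 and 0 in clone #6 (1.89% and 1.58%). Among the 10986 genes with a mean level of at least 8, 2.05%, 1.67%, 2.55% and 3.05% rose in clones #10, #20, #1 and #6. In the same order 2.34%, 5.94%, 1.06% and 2.38% of them fell, a comparison added after seeing the data. RRS1 and NOP2 passed the test in all 4 clones, and 11 members passed in at least 1. The share of all genes that passed in several clones was not counted. Between clones of an isoform no member was called as different in response at 4 h. That test called 0.0455% of all genes for IRS-1 and 0% for IRS-2, so it cannot show that the clones responded alike. No member reached 1.5-fold in any clone at 4 h, where 0.086%, 0.086%, 0.142% and 0.303% of all genes did so in clones #10, #20, #1 and #6. The methods' t-test with an unadjusted p and the same fold also gave 0 members in each clone.

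**Figure D1:**
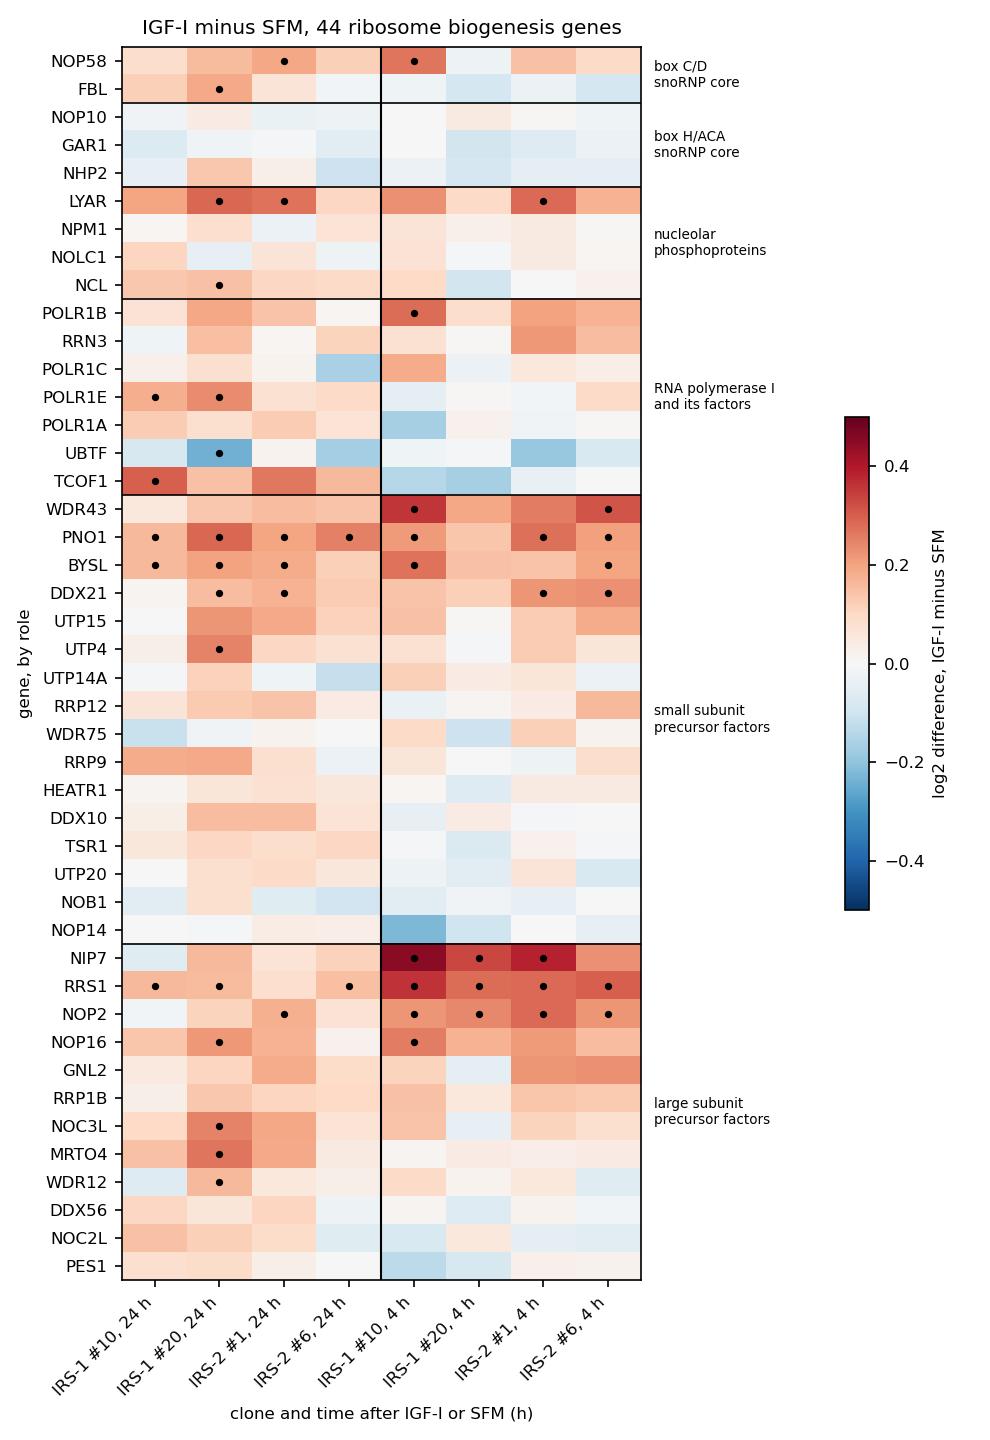
Log2 difference of IGF-I minus SFM for the 44 members (rows, ordered by role and then by the mean difference at 4 h) in each clone at 24 h and at 4 h (columns), with a dot where the adjusted p is under 0.05. NIP7, RRS1, WDR43 and NOP2 have the largest mean differences at 4 h, PNO1 has dots in all 4 clones at 24 h, and the box H/ACA genes have none.

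The 2 largest differences at 4 h were those of large subunit factors, NIP7 and RRS1. NIP7 read 10.18, 10.32 and 10.20 on the IGF-I arrays of clone #10, against 9.98, 9.66 and 9.69 on its SFM arrays. In clone #20 it read 10.09, 10.24 and 10.11 in IGF-I, against 9.83, 9.70 and 9.91 in SFM. In clone #1 the values were 10.87, 10.93 and 10.94 in IGF-I, against 10.43, 10.54 and 10.62 in SFM. The groups did not overlap in these clones, nor in clone #6, where NIP7 read 10.90, 10.96 and 10.92 in IGF-I, against 10.64, 10.78 and 10.67 in SFM, although that difference of 0.23 did not pass. NIP7, RRS1, NOP2, WDR43 and UBTF were chosen for such detail after their values were seen.

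RRS1 showed the least spread of these genes. It read 11.54, 11.50 and 11.52 in IGF-I, against 11.16, 11.23 and 11.08 in SFM, in clone #10, and 11.83, 11.74 and 11.67, against 11.47, 11.42 and 11.51, in clone #20. In the IRS-2 clones it read 11.64, 11.67 and 11.69 in IGF-I, against 11.36, 11.43 and 11.36 in SFM (#1), and 11.82, 11.77 and 11.89, against 11.47, 11.59 and 11.52 (#6). All 12 IGF-I arrays thus stood above the SFM arrays of their own clone, by 0.36, 0.28, 0.28 and 0.30 on average. NOP2 did the same: its IGF-I arrays in clone #10 read 9.81, 9.85 and 9.84, against 9.62, 9.61 and 9.62 in SFM, and its mean differences were 0.22, 0.24, 0.28 and 0.22. Among the other large subunit factors NOP16 (0.20), GNL2 (0.13), a nucleolar GTPase, and RRP1B (0.12) also rose over the 4 clones. PES1 and WDR12, partners of one complex of large subunit processing, gave -0.04 and 0.03 and did not pass, and neither did DDX56 (-0.01), MRTO4 (0.03), NOC2L (-0.03) or NOC3L (0.07).

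Of the 16 small subunit factors, 5 rose at 4 h over the 4 clones. WDR43, a component of the early complex that loads onto the precursor during transcription, rose by 0.28 ± 0.044 (adjusted p = 4.85e-06). In clone #10 it read 8.02, 8.27 and 8.09 in IGF-I, against 7.87, 7.66 and 7.77 in SFM, and in clone #6 8.67, 8.49 and 8.75, against 8.16, 8.53 and 8.28, so that in clone #6 the lowest IGF-I array lay below the highest SFM array. PNO1 and BYSL, which act late on the small subunit precursor, rose by 0.21 and 0.19, DDX21, an RNA helicase, by 0.18, and UTP4, a partner of WDR43, by 0.06. The other early factors UTP15 (0.12), WDR75 (0.03) and HEATR1 (0.01), the U3 snoRNP protein RRP9 (0.03) and NOB1 (-0.03), the nuclease of the last cut, did not pass. In the RNA polymerase I group POLR1B, the second largest subunit, rose by 0.19 and RRN3, the initiation factor that joins the polymerase to its promoter, by 0.11, while POLR1A, the largest subunit, gave -0.04.

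Both members of the box C/D core split at 4 h: NOP58 rose by 0.12 (adjusted p = 0.0019, and 0.116 without the arrays lettered B), and FBL, the methyltransferase of the same particle, gave -0.06 and did not pass. The 3 measured box H/ACA proteins NHP2, GAR1 and NOP10 gave -0.05, -0.05 and 0.01, and 0 of them passed at 4 h or at 24 h in limma, with 1 and 0 at an unadjusted p under 0.05. GAR1 read 10.86, 10.86 and 10.81 in IGF-I, against 10.82, 10.91 and 10.79 in SFM, in clone #10, and NOP10 read 12.62, 12.44 and 12.57, against 12.67, 12.67 and 12.30. The arrays of both treatments overlapped for both genes. Of the nucleolar phosphoproteins LYAR rose at 4 h, by 0.20 ± 0.037 (adjusted p = 0.000103), while NCL (0.01), NPM1 (0.03) and NOLC1 (0.03) did not pass.

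The start regions of these genes are shown because MYC is a known regulator of this gene class and the E-box can be read directly from the sequence. RefSeq windows of 300 bases (GRCh38.p14), from 250 before to 50 after a listed start, were at hand for 37 of the 44 measured members, and a gene counted as holding CACGTG, which reads the same on both strands, if any of its windows did. This was so for 18 of the 37 members (48.6%), against 10.9% of the 15384 genes on the arrays that had a window. Counted by window it was 18 of 44 (40.9%), against 8.36%. The share among genes as bright as the members was not counted. Among the members that rose at 4 h over the 4 clones 8 of 12 held the motif (66.7%), and among the other members 10 of 25 did (40%). In 11 of the 18 genes the motif lay after the listed start, between positions 4 and 36, where position 1 is the first base of the gene, and in 16 of the 18 it lay within 50 bases of the start. These are matches of letters, not measured sites, and the list was written with earlier results of these data known. The stretches of 60 bases around the motif in the 8 members that rose are printed below in order of their difference at 4 h, with the E-box in capitals.
WDR43: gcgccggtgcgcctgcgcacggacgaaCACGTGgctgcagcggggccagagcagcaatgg
NOP2: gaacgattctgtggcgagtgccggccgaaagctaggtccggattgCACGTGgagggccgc
PNO1: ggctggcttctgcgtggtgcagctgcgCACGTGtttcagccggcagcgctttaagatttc
LYAR: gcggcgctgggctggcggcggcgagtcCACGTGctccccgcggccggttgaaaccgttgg
BYSL: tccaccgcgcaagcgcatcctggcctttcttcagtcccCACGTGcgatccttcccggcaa
DDX21: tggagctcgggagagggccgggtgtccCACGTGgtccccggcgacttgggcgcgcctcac
GNL2: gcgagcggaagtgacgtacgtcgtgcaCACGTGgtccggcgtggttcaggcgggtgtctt
UTP4: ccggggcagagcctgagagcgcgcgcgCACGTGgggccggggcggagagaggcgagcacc

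The WDR43 stretch lies at chr2:28894643-28894702 on the plus strand, PNO1 at chr2:68157870-68157929 (plus) and BYSL at chr6:41921489-41921548 (plus). The NOP2 stretch lies at chr12:6568242-6568301 on the minus strand, LYAR at chr4:4290053-4290112 (minus) and GNL2 at chr1:37595902-37595961 (minus). DDX21 is at chr10:68956589-68956648 (plus) and UTP4 at chr16:69132606-69132665 (plus). The motif began at position 4 in WDR43 and GNL2, 10 in PNO1, 29 in BYSL and 36 in NOP2, and before the start, at -16 in UTP4, -31 in DDX21 and -64 in LYAR. NIP7, the gene with the largest difference at 4 h, held no CACGTG in its window, and neither did NOP16, POLR1B or RRN3.

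MYC itself differed between times. Its probe set stood 0.17 higher with IGF-I at 4 h over the 4 clones, which passed the test, with 0.01, 0.32, 0.28 and 0.07 in clones #10, #20, #1 and #6, of which that of clone #20 passed the test. At 24 h its difference was -0.15 over the 4 clones, which also passed, with -0.06, -0.12, -0.14 and -0.28, of which that of clone #6 passed. Whether MYC had a part in the members' responses was not tested.

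After 24 h of IGF-I more members were higher than in SFM than at 4 h, with a larger median difference but smaller differences of the leading genes. Over the 4 clones 23 members rose and 1 fell, where 10.6% of all genes rose and 11.2% fell, and the median was 0.09 over the members and 0.00 over all genes. PNO1 led (0.23 ± 0.027, 1.17-fold, adjusted p = 4.06e-09), followed by TCOF1 (0.22 ± 0.045), LYAR (0.22 ± 0.037), BYSL (0.17 ± 0.026) and MRTO4 (0.16 ± 0.032). Clone by clone 5 members rose and 0 fell in clone #10 (4.39% and 6.65% of all genes), 13 and 1 in clone #20 (7.46% and 2.95%), 6 and 0 in clone #1 (2.93% and 1.62%), and 2 and 0 in clone #6 (1.42% and 4.34%). Among the genes with a mean level of at least 8, 6.91%, 12.6%, 5.13% and 2.26% rose in clones #10, #20, #1 and #6. In the same order 10.8%, 4.84%, 2.49% and 6.98% of them fell. In clone #10 and clone #6 the members' counts were small, and the counts of single clones moved with the scaling of the arrays and with single letters. Over the 4 clones 15 members were called without the arrays lettered C. No member reached 1.5-fold at 24 h, where 0.298%, 0.314%, 0.0354% and 0.0657% of all genes did in the 4 clones in the same order.

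PNO1 is the one member that passed in all 4 clones at 24 h, although its call in clone #10 was near the threshold (adjusted p = 0.0473). It passed in 2 clones, #20 and #6, with median centring, without the intensity trend and with the replicate block, in 1, #20, when its probe sets were averaged, and in 2, 1 and 1 without letters A, B and C. It read 10.73, 10.69 and 10.75 in IGF-I, against 10.47, 10.57 and 10.63 in SFM, in clone #10, and 10.90, 10.79 and 10.81, against 10.49, 10.54 and 10.60, in clone #20. In clone #1 it read 10.74, 10.78 and 10.69, against 10.57, 10.51 and 10.53 in SFM, and in clone #6 10.98, 11.02 and 11.13, against 10.86, 10.80 and 10.71. Treated and untreated arrays were separate in every clone at 24 h. PNO1 and RRS1 each passed in 7 of the 8 comparisons of clone and time, BYSL and NOP2 in 5, DDX21 in 4, and 25 of the 44 members rose in none. Such recurrence was not counted over all genes. The calls of RRS1 at 24 h, in 3 clones, were also unsteady. It passed in 1 clone with median centring, and in 2 without the intensity trend, with the replicate block or in a fit to 6 arrays. Without letters A, B and C it passed in 0, 0 and 1. BYSL read 9.95, 10.01 and 9.94 in IGF-I, against 9.78, 9.71 and 9.81 in SFM, in clone #20 at 24 h, with no overlap. Where IGF-I and SFM arrays of only 1 clone are given at 24 h, here and below, it is the clone with that gene's largest difference. The share of all genes whose IGF-I and SFM arrays did not overlap was not counted at either time. UTP15 (0.13), DDX21 (0.12), WDR43 (0.12), UTP4 (0.11), RRP12 (0.10), DDX10 (0.10) and TSR1 (0.09) made up the rest of the 9 small subunit factors that rose over the 4 clones at 24 h.

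**Figure D2:**
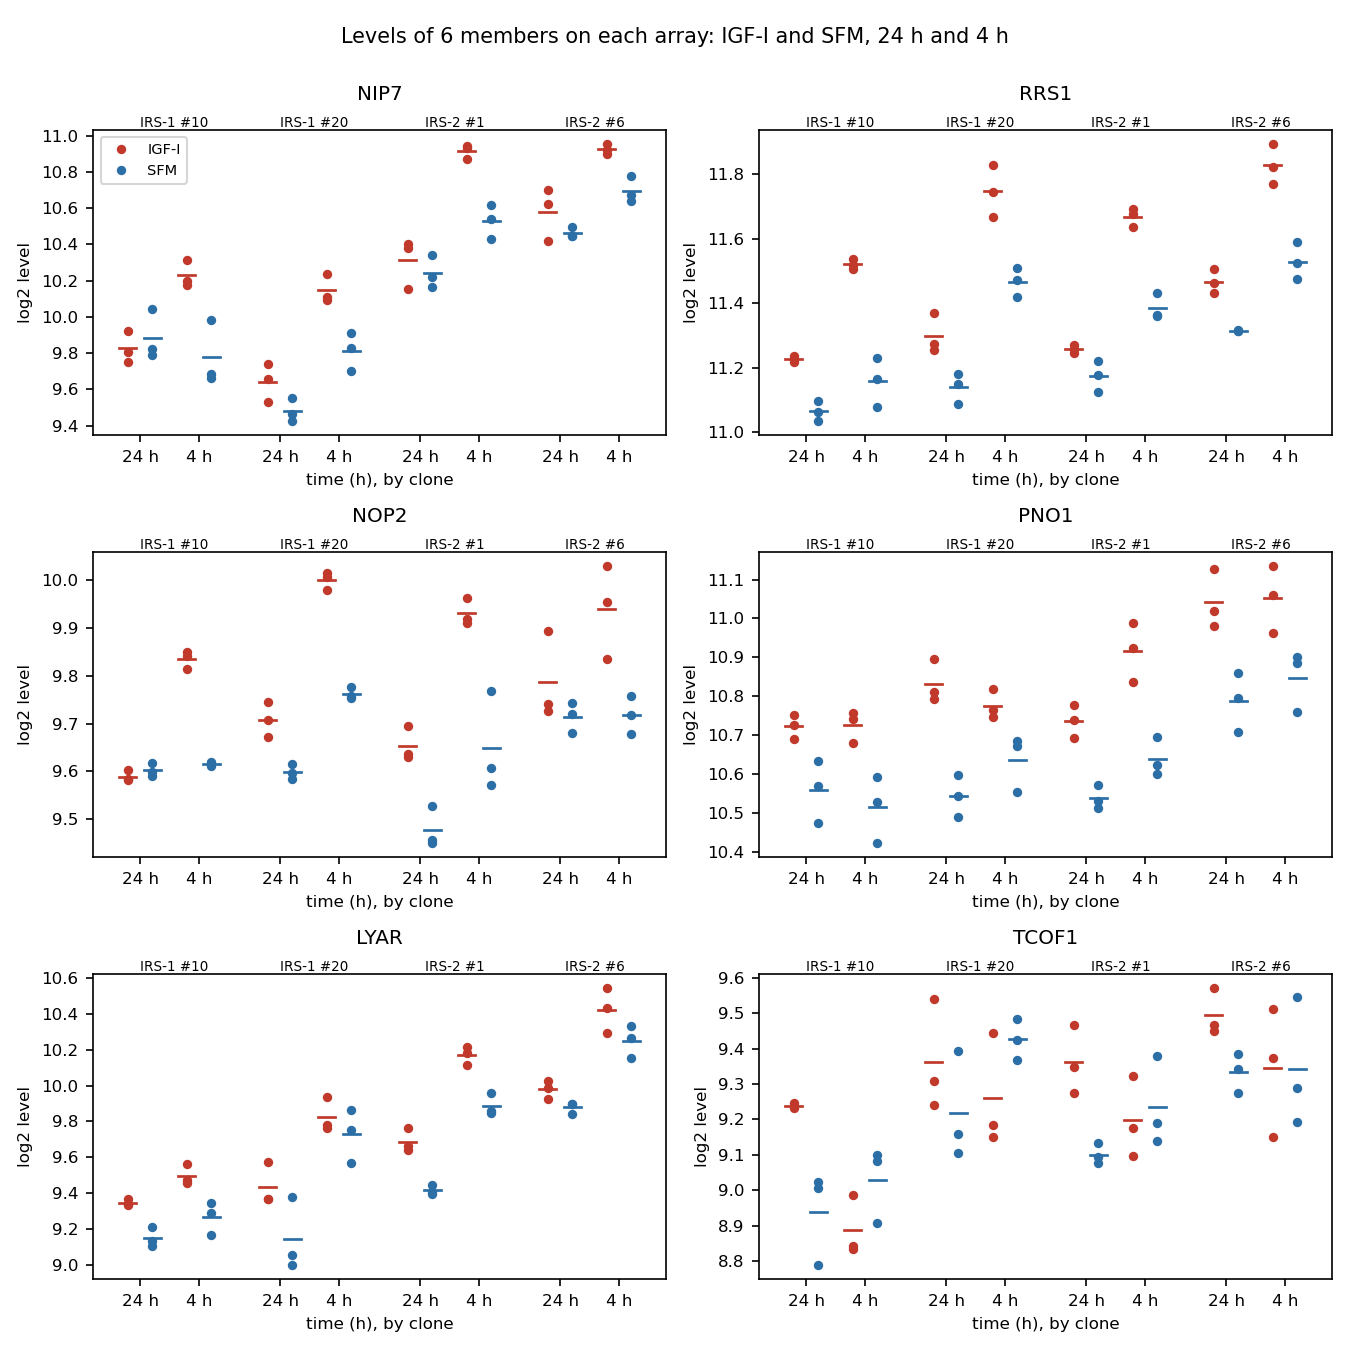
Log2 level of NIP7, RRS1, NOP2, PNO1, LYAR and TCOF1 on each array, by clone and time, with IGF-I in red, SFM in blue and a line at each mean of 3 arrays. The arrays of the 2 treatments are separate in all 4 clones at both times for RRS1 and PNO1, in all 4 at 4 h and none at 24 h for NIP7, in all 4 at 4 h and 2 at 24 h for NOP2, and in 3 clones at 24 h and none at 4 h for TCOF1.

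LYAR, a nucleolar zinc finger protein of precursor processing, read 9.64, 9.66 and 9.76 in IGF-I, against 9.41, 9.39 and 9.45 in SFM, in clone #1 at 24 h, and 9.37, 9.57 and 9.37, against 8.998, 9.06 and 9.38, in clone #20. The groups were separate in clone #1, and in clone #20 the highest SFM array lay among the IGF-I arrays. NCL, nucleolin, the abundant RNA-binding protein of the nucleolus, rose by 0.12 over the 4 clones (adjusted p = 4.92e-05), while the mean of its probe sets gave 0.04 (adjusted p = 0.132). It read 12.23, 12.29 and 12.35 in IGF-I, against 12.11, 12.12 and 12.20 in SFM, in clone #20, without overlap. NPM1 and NOLC1 both gave 0.03 and did not pass.

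The RNA polymerase I group held members that moved in both directions at 24 h. TCOF1, treacle, a nucleolar scaffold of ribosomal RNA transcription, read 9.23, 9.25 and 9.24 in IGF-I, against 8.79, 9.02 and 9.01 in SFM, in clone #10 (0.30, adjusted p = 0.0257), and rose by 0.22 over the 4 clones (adjusted p = 0.00022). POLR1E, a subunit of the polymerase, read 9.46, 9.59 and 9.55 in IGF-I, against 9.23, 9.27 and 9.40 in SFM, in clone #20, and rose by 0.15 over the 4 clones (adjusted p = 5.3e-05). UBTF, the factor that binds the ribosomal RNA genes along their length, fell: it read 8.76, 9.01 and 8.99 in IGF-I, against 9.11, 9.18 and 9.19 in SFM, in clone #20, and its difference over the 4 clones was -0.12 (adjusted p = 0.000844). With the mean of all its probe sets in place of the brightest one, UBTF gave 0.019 and did not pass, and without the arrays lettered A it gave -0.09 (adjusted p = 0.0502). POLR1B (0.11) and POLR1A (0.10) rose over the 4 clones, while RRN3 (0.06) and POLR1C (-0.01), a subunit that RNA polymerase III shares, did not pass.

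Both box C/D proteins rose at 24 h over the 4 clones, NOP58 by 0.14 (adjusted p = 0.000181) and FBL by 0.09 (adjusted p = 0.02), the second of which did not pass without the arrays lettered A or C (adjusted p = 0.0776 and 0.25). NOP58 read 11.45, 11.37 and 11.47 in IGF-I, against 11.29, 11.24 and 11.19 in SFM, in clone #1, and FBL read 11.70, 11.67 and 11.72, against 11.43, 11.49 and 11.59, in clone #20, without overlap in these clones. FBL gave 0.12, 0.07 and -0.01 in clones #10, #1 and #6, where its arrays overlapped, and those of NOP58 overlapped in clones #10 and #6. Of the large subunit factors MRTO4, a placeholder for a ribosomal stalk protein, read 10.24, 10.22 and 10.19 in IGF-I, against 9.87, 9.91 and 10.08 in SFM, in clone #20. NOC3L read 10.36, 10.47 and 10.47, against 10.11, 10.19 and 10.26, in the same clone and rose by 0.15 over the 4 clones. NOP16 and RRS1 (0.14 each), NOP2 and RRP1B (0.09 each) were the other large subunit factors that rose, 6 of 12. NIP7 gave 0.07 (adjusted p = 0.235).

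**Figure D3:**
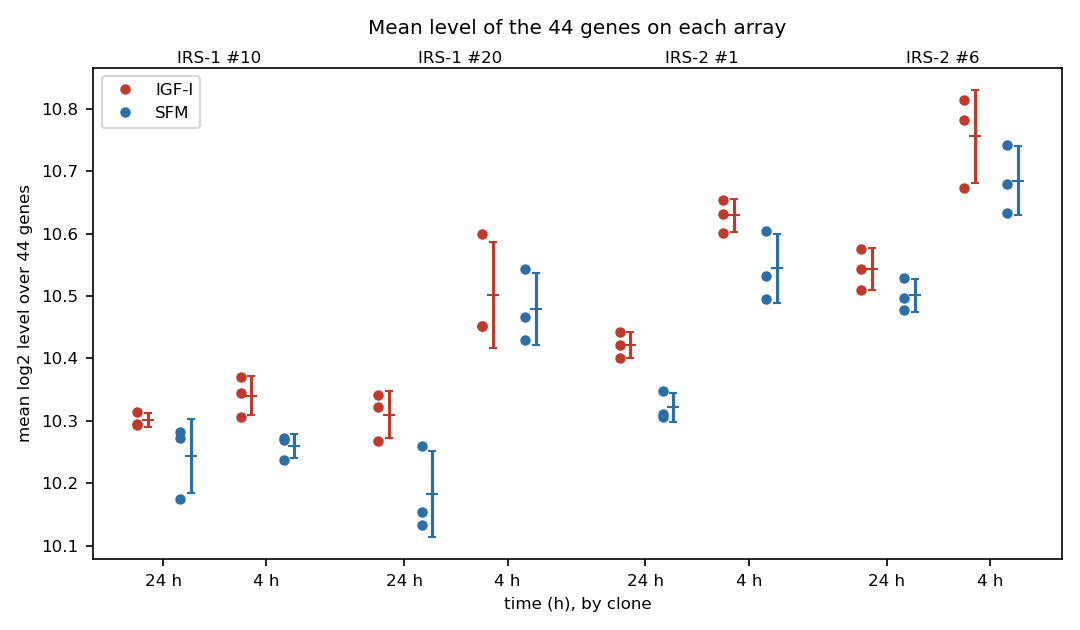
Mean log2 level over the 44 members on each array, by clone and time, with IGF-I in red, SFM in blue, and the mean and SD of 3 arrays beside the points. At 24 h the SFM means are 10.24, 10.18, 10.32 and 10.50 in clones #10, #20, #1 and #6, against 10.26, 10.48, 10.54 and 10.69 at 4 h.

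In clones #20, #1 and #6 more members changed between times in SFM than with IGF-I at either time. On the SFM arrays of 3 clones most members were lower at 24 h than at 4 h: 38 of 44 fell in clone #20, 28 in clone #1 and 24 in clone #6, and 0 rose. In clone #10 0 members moved in either direction (limma, with 5 at an unadjusted p under 0.05). Quantile normalization gave 5 lower in clone #10 and 37 in clone #6, and median centring 13 in clone #6. Without the arrays lettered B the counts were 9 in clone #1 and 11 in clone #6, and without C they were 17 and 9. Of all genes 16.6% fell and 9.18% rose in clone #20, 4.74% and 2.9% in clone #1, 5.54% and 10.6% in clone #6, and 0.374% and 2.21% in clone #10. Medians over the members were -0.01, -0.32, -0.23 and -0.18 in clones #10, #20, #1 and #6, against 0.01, 0.02, -0.00 and -0.02 over all genes. Among the 10986 genes with a mean level of at least 8, a comparison added after seeing the data, 27.7%, 7.53% and 4.63% fell in clones #20, #1 and #6. No member reached 1.5-fold in SFM, where 0.0202%, 0.541%, 0.329% and 0.647% of all genes did.

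**Figure D4:**
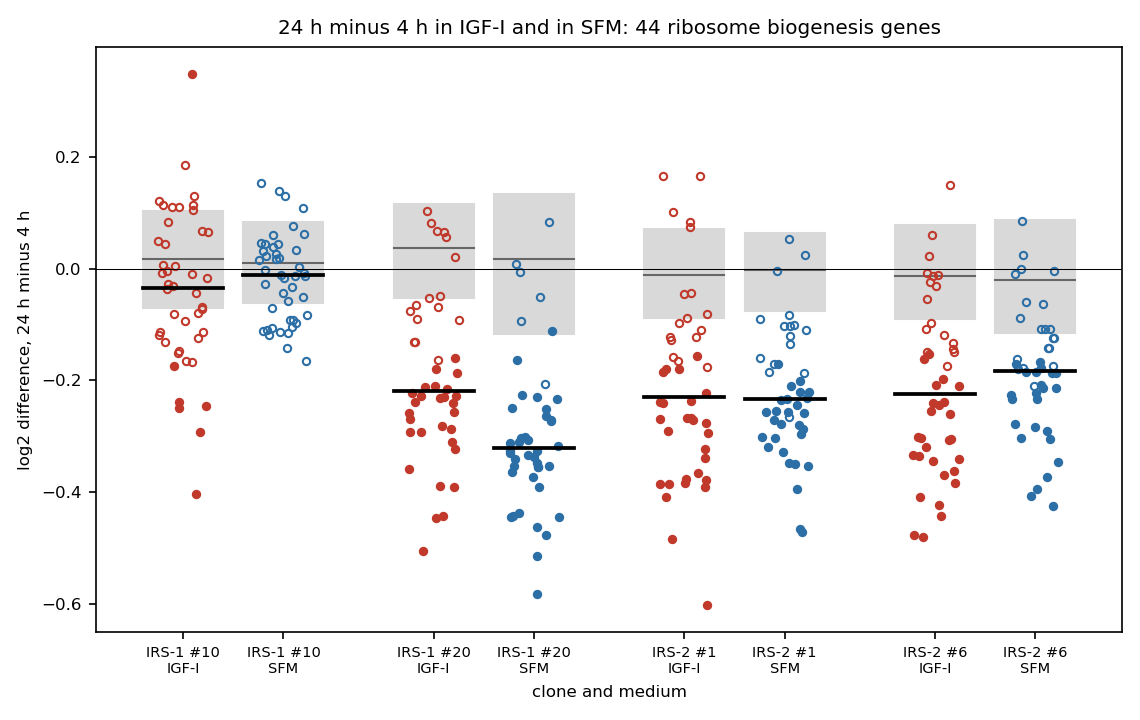
Log2 difference of 24 h minus 4 h for each of the 44 members (points, filled where the adjusted p is under 0.05) in IGF-I (red) and SFM (blue) arrays of each clone, with the members' median in black and the middle range (quartiles) and median of all genes in grey. The members' median lies below that of all genes in clones #20, #1 and #6 in both media, and close to it in clone #10.

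LYAR gave the largest fall in clone #20 and clone #1. Its SFM arrays read 8.998, 9.06 and 9.38 at 24 h, against 9.57, 9.75 and 9.87 at 4 h, in clone #20, and 9.41, 9.39 and 9.45, against 9.86, 9.96 and 9.85, in clone #1. In clone #6 they read 9.90, 9.89 and 9.84 at 24 h, against 10.16, 10.33 and 10.26 at 4 h. The times did not overlap in any of these clones, and the differences were -0.58, -0.47 and -0.37, while clone #10 gave -0.12, which did not pass. POLR1E (-0.45, -0.47 and -0.41), NOC3L (-0.48, -0.35 and -0.29), WDR12 (-0.37, -0.30 and -0.43) and UTP14A, a scaffold of small subunit processing (-0.51, -0.30 and -0.40), were close behind. NOP58 fell by 0.46, 0.32 and 0.17 in these clones, and its SFM arrays in clone #20 read 11.35, 11.38 and 11.31 at 24 h, against 11.74, 11.71 and 11.98 at 4 h. By role, 12, 11 and 8 of the 12 large subunit factors fell in clones #20, #1 and #6, and 14, 7 and 7 of the 16 small subunit factors. Of the box H/ACA proteins NHP2 and GAR1 fell in all 3 clones, while NOP10 gave 0.08, -0.00 and 0.02.

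Some members did not follow. NOP10, POLR1A, UBTF, TCOF1, PNO1 and DDX10 fell in no clone, and 20 members fell in 3 clones. Falls in several clones were not counted over all genes. PNO1, which rose with IGF-I at both times, gave 0.04, -0.09, -0.10 and -0.06 in SFM, and its SFM arrays in clone #20 read 10.49, 10.54 and 10.60 at 24 h, against 10.55, 10.69 and 10.67 at 4 h. MYC was also lower at 24 h in SFM, with -0.26, -0.53, -0.28 and -0.29 in clones #10, #20, #1 and #6, and all but the first passed.

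With IGF-I present the members were lower at 24 h as well, a comparison added after seeing the data. Called members fell and rose in numbers of 6 and 1 in clone #10 (2.9% and 8.21% of all genes), 28 and 0 in clone #20 (7.91% and 8.61%), 27 and 0 in clone #1 (5.68% and 6.69%), and 27 and 0 in clone #6 (4.46% and 9.14%). The medians were -0.03, -0.22, -0.23 and -0.22. NIP7 gave -0.40, -0.50, -0.60 and -0.34, and in clone #1 it was the one member past 1.5-fold in a comparison of times, with 10.40, 10.15 and 10.38 at 24 h, against 10.87, 10.93 and 10.94 at 4 h. TCOF1 was the member that rose in clone #10, by 0.35. The comparisons of IGF-I with SFM and of 24 h with 4 h share arrays, so a high SFM group at 4 h or a low one at 24 h enters both.

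The behaviour of clone #10 in SFM was set against the other clones, again after seeing the data. Its 24 h minus 4 h difference was higher than that of clone #20 for 31 members, of clone #1 for 13 and of clone #6 for 5, and lower for 0. Of all genes 23.9%, 3.45% and 1.9% differed in either direction. In the same order 3377, 595 and 99 of all genes were higher, and 1351, 87 and 277 lower. The mean over the members on the SFM arrays was 10.24 ± 0.060 at 24 h and 10.26 ± 0.020 at 4 h in clone #10, and 10.18 ± 0.068 and 10.48 ± 0.058 in clone #20 (SD, n = 3). Clone #10 thus had the lowest mean of the 4 clones at 4 h. The ratio of the 3' to the 5' probe set of ACTB, a sign of RNA quality, changed by -0.02, -0.02, 0.01 and -0.01 log2 between SFM times in clones #10, #20, #1 and #6, and that of GAPDH by -0.05, 0.02, -0.01 and 0.05. The ACTB ratio was also lower with IGF-I than with SFM in all 8 comparisons, with differences of -0.01 to -0.05, while the GAPDH ratio differed by -0.03 to 0.04, and the part of these ratios in the results was not tested.

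The question of the study was how IRS-1 and IRS-2 differ in what they pass on. For these genes no difference in IGF-I response between isoforms was found: 0 of 44 members passed in limma at 4 h or at 24 h, where 0.44% and 0.769% of all genes did, with 5 and 3 members at an unadjusted p under 0.05. The differences of IRS-1 minus IRS-2 ran from -0.19 to 0.12 at 4 h and from -0.08 to 0.16 at 24 h, and their 95% intervals from -0.36 to 0.24 and from -0.23 to 0.32, which include values as large as the responses themselves. Between clones of an isoform 0 members passed as well, with 6 (IRS-1, 4 h), 0 (IRS-2, 4 h), 7 (IRS-1, 24 h) and 2 (IRS-2, 24 h) at an unadjusted p under 0.05. The share of all genes called in these comparisons was 0.0455%, 0%, 1.55% and 0.00506%.

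For a few members the response was called as different between times. In the IRS-1 clones TCOF1 (0.38 ± 0.089, adjusted p = 0.00447), POLR1E (0.23), FBL (0.21) and PES1 (0.19) had a higher response at 24 h than at 4 h, and NIP7 (-0.34 ± 0.076, adjusted p = 0.00231), NOP2 (-0.18) and RRS1 (-0.16) a lower one, 7 members where 8.55% of all genes differed. In the IRS-2 clones RRS1 (-0.17 ± 0.043, adjusted p = 0.0114) was the 1 member called, a lower share than the 4.26% of all genes that differed. NIP7 gave -0.21 there (adjusted p = 0.147). RRS1 was thus the 1 member that passed in both isoforms. These calls rest on few arrays: TCOF1 did not pass without the arrays lettered C (adjusted p = 0.0611), NIP7 not without B or C (0.123 and 0.0909), and RRS1 in the IRS-2 clones not without any 1 letter (0.178, 0.0548 and 0.265 for A, B and C).

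Without IGF-I the clones started from different levels. Over both times the IRS-1 clones stood lower than the IRS-2 clones for 36 members and higher for 0. Of all 19775 genes 8078 were lower and 4730 higher, so that 64.8% differed in this comparison. NIP7 gave -0.75 ± 0.038, and NOB1 (-0.55), LYAR (-0.54) and UTP4 (-0.52) followed. Both IRS-1 clones lay below both IRS-2 clones for 22 members at 24 h and 23 at 4 h, and above them for 0. The same order of group means held for 31.6% of all genes at 24 h and 34.5% at 4 h, and the opposite order for 24.8% and 17.7%. Clone #10 was higher than clone #20 for 6 members and lower for 21, where 3895 of all genes were higher and 3712 lower (38.5%). Clone #1 was higher than clone #6 for 1 and lower for 27, where 2856 of all genes were higher and 2134 lower (25.2%). With 2 clones an isoform, clone and isoform cannot be told apart in these levels.

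Genes of the same pathway outside the list were counted in the same way, against 10.6% of all genes that rose and 11.2% that fell at 24 h, and 5.32% and 11.9% at 4 h. Of 65 other pre-ribosome factors 26 rose and 1 fell with IGF-I at 24 h over the 4 clones, and 13 and 1 at 4 h (medians 0.07 and 0.02). EMG1, a methyltransferase of the small subunit RNA, gave 0.23 at 24 h and -0.01 at 4 h, LTV1, a late small subunit factor, 0.21 and 0.23, and RRP15 0.21 and 0.13. In SFM between 24 h and 4 h 0, 48, 21 and 16 of them fell in clones #10, #20, #1 and #6, and 2, 0, 0 and 0 rose. Of 9 other RNA polymerase I genes 1 rose and 1 fell at 24 h, TAF1A (0.24), a part of the promoter selectivity factor, and POLR1D (-0.14), in each direction close to the share of all genes. RNA polymerase III genes rose in 7 of 18 cases at 24 h, with POLR3G (0.23) and POLR3K (0.18) ahead, and RNA exosome genes, which trim precursor ends, in 5 of 12, with EXOSC8 (0.27) and EXOSC2 (0.18) ahead. For the RNA polymerase III and exosome genes, the falls and the counts at 4 h are not given here.

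The cytosolic ribosomal proteins are the parts that these factors assemble. Of 53 measured 0 rose and 6 fell with IGF-I at 24 h over the 4 clones, and 1 rose and 0 fell at 4 h, with medians of -0.03 and 0.00. The share that fell at 24 h is close to the 11.2% of all genes. RPL3 gave -0.11 and RPS9 -0.08 at 24 h. In SFM between 24 h and 4 h 0, 15, 7 and 0 of them fell in clones #10, #20, #1 and #6 (0.374%, 16.6%, 4.74% and 5.54% of all genes), with medians of 0.06, -0.07, -0.08 and -0.01.

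Where a called member had further probe sets, these gave another reading of the same RNA. Of 13 such probe sets at 4 h 10 had the same sign over the 4 clones, and of 33 at 24 h 21 did. Called in the same direction were 6 at 4 h and 9 at 24 h, and in the opposite direction 0 and 2. For the SFM times the counts of the same sign were 32 of 38 in clone #20, 22 of 27 in clone #1 and 26 of 26 in clone #6. Called in the same direction were 21, 6 and 7, and in the opposite direction 2, 0 and 0.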

How the data were processed

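Total RNA of T47D-YA sublines was hybridized to Affymetrix arrays, 3 per group. The authors ran GC-RMA within GeneData Refiner (named GCRMA, with no version, among the submitters' processing notes), and the deposited values are log2 levels, from 3.13 to 15.4, of 54675 probe sets. How far a signal stands above background cannot be said without raw intensities, which were not used here. Symbols came from the platform annotation, in which 41091 probe sets carry 1 symbol and 1801 several.

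After 62 control probe sets were left out, limma 3.58.1 (R 4.3.3) was fitted with a mean per group and an intensity trend, with 32 residual degrees of freedom, and tested on simulated data. The members and gene lists were chosen with earlier results of these data known. Per-array values were due to members past 1.5-fold in a clone between IGF-I and SFM or between SFM times (there were 0) and to the 2 per role with the largest mean difference at 24 h. Of other lists, at most 3 genes with the largest mean difference at 24 h and MYC were named. Alternatives were quantile normalization, median centring, a filter on dim probe sets (log2 of at least 5 on 3 arrays), a fit to 6 arrays, no trend, means of a gene's probe sets, the methods' t-test, a fold threshold, the replicate letter as a block, and each letter left out. Promoter windows were read with Python and pandas.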

Additional observations from a re-analysis of the deposited data

Results flagged for a closer look

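For 7 members the IGF-I response of the IRS-1 clones differed between 24 h and 4 h in limma's test of that difference. The same held for 8.55% of all genes. TCOF1 (0.38), POLR1E (0.23), FBL (0.21) and PES1 (0.19) responded more at 24 h, and NIP7 (-0.34), NOP2 (-0.18) and RRS1 (-0.16) less. In the IRS-2 clones the same test passed for RRS1 (-0.17), and for 4.26% of all genes. Of these members, POLR1E, FBL, NOP2 and RRS1 in the IRS-1 clones also lost their call without the arrays of at least 1 letter. The call of PES1 was not put to the other settings. The 24 h minus 4 h difference in SFM differed between clone #10 and the other clones, with 31 members called against clone #20, 13 against clone #1 and 5 against clone #6. Of all genes 23.9%, 3.45% and 1.9% were called.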

How the results depend on the processing

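Counts are members called in either direction, for clones #10, #20, #1 and #6 in turn. Over the 4 clones together the counts at 4 h (15) and 24 h (24) stayed within 1.5 times under every setting that could be run, 11 to 18 and 16 to 28, other than a fold threshold (0 and 0) and the arrays without letter C at 24 h; leaving out each letter gave 11 to 13 at 4 h and 15 to 16 at 24 h. Single clones depended more on the setting. Quantile normalization gave 14 members in #10, 7 in #20 and 10 in #1 at 4 h, 14 in #10 at 24 h, and for the SFM times 5 in #10 and 37 in #6. Median centring gave 5 in #10 and 3 in #6 at 4 h, 0, 9, 0 and 1 at 24 h, and 13 for the SFM times in #6. Fitting only the 6 arrays compared gave 2 in #10, 0 in #20 and 3 in #6 at 4 h, and 6 in #20 and 14 in #1 at 24 h. Without the intensity trend 3, 9, 2 and 1 were called at 24 h. Averaging the probe sets of each gene gave 1 in #6 at 24 h, and turned UBTF to 0.019 over the 4 clones at 24 h, against -0.12. With an added fold of at least 1.5, and with the methods' t-test at an unadjusted p and the same fold, 0 members were called in each comparison of IGF-I with SFM in a clone and of SFM times, and after Benjamini-Hochberg that t-test called 0 for IGF-I, and 0, 0, 3 and 3 for the SFM times. The filter on dim probe sets left every count within 1.5 times. Scaling moved the all-gene median by less than 0.1. The members' medians for the SFM times were -0.07, -0.22, -0.22 and -0.25 with quantile normalization and 0.01, -0.36, -0.24 and -0.14 with median centring, against -0.01, -0.32, -0.23 and -0.18. Over the 4 clones their median response was 0.05 and 0.03 at 4 h, against 0.03, and 0.09 and 0.09 at 24 h, against 0.09. Among all genes, quantile normalization gave 12.8% higher and 10.3% lower for the SFM times in #20, against 9.18% and 16.6%, and 7.59% and 8.03% in #6, against 10.6% and 5.54%.

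Leaving out each replicate letter in turn gave 3 to 5, 1 to 3, 3 to 5 and 1 to 7 members at 4 h, 0 to 3, 3 to 11, 0 to 1 and 0 to 1 at 24 h, and 0 to 0, 31 to 34, 9 to 27 and 9 to 16 for the SFM times, with fewer arrays in each fit. Of 65 calls of single genes, 13, 23 and 22 were lost without letters A, B and C, 12 with median centring and 4 or fewer with any other setting run on them, where UBTF alone turned its sign. Most same-letter pairs of arrays did not deviate together (7 of 36 pairs with r over 0.1, from -0.47 to 0.31). In clone #20 r was -0.25, 0.31 and -0.08 for letters A, B and C between treatments at 4 h. It was 0.30, -0.15 and 0.15 between treatments at 24 h, and 0.30, -0.09 and 0.24 between SFM times. With the replicate block 3 members were called in #6 at 4 h, 2 in #10, 1 in #1 and 1 in #6 at 24 h, and the other counts stayed within 1.5 times. Depth of signal over background is unknown, and 3 arrays a group limit what differences can be seen.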

Other observations

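Translation control genes of the TOR pathway moved in both directions at 24 h of IGF-I over the 4 clones: 5 of 16 rose and 5 fell, where 1 rose and 6 fell at 4 h. Of all genes 10.6% rose and 11.2% fell at 24 h. DEPTOR, an inhibitor of the TOR kinase, gave -0.42, -0.29, -0.26 and -0.29 in clones #10, #20, #1 and #6 at 24 h, and passed the test in each. EIF4B, a helper of the cap-binding helicase, gave -0.26, -0.14, -0.25 and -0.22 and also passed in each. EIF4EBP1, which holds back cap-dependent translation, gave 0.29 and 0.43 in clones #10 and #20, where it passed, and 0.13 and -0.03 in clones #1 and #6, where it did not; the difference between isoforms is not given here. In the MYC network 1 of 11 genes rose and 4 fell at 24 h, MLX by 0.16 and MLXIP and MNT with -0.19 and -0.15. Of 8 luminal markers 0 rose and 5 fell at 24 h, with ESR1 at -0.17, FOXA1 at -0.13 and GATA3 at -0.12, and of 8 markers of other cell types 0 rose and 1 fell, VIM (-0.15).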
